A study of Homo sapiens with 12 samples.

Results

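The metallothionein genes MT2A, MT1E, MT1F, MT1G, MT1M and MT1X, together with MTF1, the gene of the factor that switches them on, were examined in SNU449 cells, a human hepatocellular carcinoma cell line. The 7 genes were chosen by name. Of these, 5 had values among the 15601 genes of the table over all 12 libraries, namely MT2A, MT1E, MT1F, MT1X and MTF1. MT1G and MT1M were not analysed here, since none of the 8 tables used gave them a value. RNA was sequenced from the 3′ end in 4 groups of 3 libraries. SNU449 control cells were naive and Axl-proficient, and SNU449-Axl- control cells had lost the receptor tyrosine kinase Axl by CRISPR/Cas9 editing. Rego-resistant SNU449 and Rego-resistant SNU449-Axl- cells were derived from them by long exposure to rising doses of the kinase inhibitor Regorafenib (Rego), up to 2 times the IC50. All cells were grown in RPMI medium with serum. Each group was 1 cell population sequenced as technical triplicates, so that errors and p-values below cover the spread between libraries, and a difference between groups cannot be told apart from a difference between 4 populations.

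Metallothioneins are small cysteine-rich proteins that bind zinc and copper, buffer their free levels and take up toxic metals such as cadmium. Free zinc activates MTF1, which binds metal response elements in the promoters of metallothionein genes and of the zinc exporter SLC30A1. Metallothionein genes also respond to glucocorticoids and to oxidative stress, and they are strongly expressed in normal liver.

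The metal response elements are shown first because they are the sequence that ties the metallothioneins to MTF1. RefSeq promoters on GRCh38.p14 were found for 3 of the 7 genes, MT2A, MT1X and MTF1, and are given as the 250 bases before the start site, 5′ to 3′ in the direction of the gene. Capitals mark the core letters of the element, TGCACNC or TGCGCNC, on either strand, with no overlap between the marked stretches. The MT2A promoter lies at chr16:56608334-56608583 on the plus strand, the MT1X promoter at chr16:56682220-56682469 on the plus strand and the MTF1 promoter at chr1:37859593-37859842 on the minus strand.
MT2A: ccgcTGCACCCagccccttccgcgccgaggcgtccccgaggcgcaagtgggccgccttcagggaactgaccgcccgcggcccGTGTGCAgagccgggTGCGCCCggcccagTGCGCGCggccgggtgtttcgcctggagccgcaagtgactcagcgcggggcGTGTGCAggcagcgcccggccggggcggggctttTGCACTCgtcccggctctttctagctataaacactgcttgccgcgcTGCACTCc
MT1X: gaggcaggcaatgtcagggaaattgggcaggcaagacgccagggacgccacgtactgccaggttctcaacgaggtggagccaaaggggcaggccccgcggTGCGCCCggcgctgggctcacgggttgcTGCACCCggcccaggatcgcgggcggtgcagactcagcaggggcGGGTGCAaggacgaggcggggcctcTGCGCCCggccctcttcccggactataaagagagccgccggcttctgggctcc
MTF1: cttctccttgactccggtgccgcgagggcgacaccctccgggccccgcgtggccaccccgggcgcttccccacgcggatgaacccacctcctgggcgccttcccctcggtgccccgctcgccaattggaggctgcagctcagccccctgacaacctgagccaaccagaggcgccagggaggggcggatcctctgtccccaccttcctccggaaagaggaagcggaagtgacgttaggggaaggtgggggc
The MT2A promoter held 7 matches, 5 on the plus and 2 on the minus strand, and the MT1X promoter held 4, with 3 on the plus and 1 on the minus strand. These letters were not in the MTF1 window. Of 35114 promoters of the same length, 24.8% held at least 1 match, 0.37% held as many as MT1X and 0.0313% as many as MT2A. A match is a stretch of letters and not a measured binding site.

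In GENCODE on GRCh38 the metallothionein members lie in 1 cluster on chromosome 16, from 56565073 to 56684196, which holds 17 annotated metallothionein genes, 11 of them protein coding. MT2A (ENSG00000125148) spans 56608584 to 56609497, MT1E (ENSG00000169715) 56625475 to 56627112, MT1F (ENSG00000198417) 56657731 to 56660698 and MT1X (ENSG00000187193) 56682470 to 56684196, all on the plus strand. MTF1 (ENSG00000188786) lies apart on chromosome 1, from 37809574 to 37859592 on the minus strand. A hand-written list of 15 other metallothionein genes and pseudogenes was not analysed here, because the table gave none of them a value.

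The library values used below are variance-stabilized levels after removal of a preparation effect, turned back from the log2 scale, and are not read counts. Their lowest value in the table was 12, and differences between low values are compressed on this scale. Group differences were fitted with limma on log2(value + 1) over all 12 libraries, blocked by replicate number, and a gene was called at a Benjamini-Hochberg adjusted p under 0.05 over all 15601 genes. AXL itself had values of 715 to 941 in SNU449 control and 815 to 1271 in Rego-resistant SNU449 cells. In SNU449-Axl- cells its values were 33 to 53 for control and 38 to 52 for Rego-resistant libraries. The fitted level of AXL was 19.5-fold lower in control cells (limma, adjusted p = 2.16e-09) and 23-fold lower in resistant cells (limma, adjusted p = 1.27e-09), which is a measure of RNA at the 3′ end and not of the edited site. All 7 listed mesenchymal markers had values, from SNAI2 at 31 to 79 up to vimentin (VIM) at 13759 to 27044. Of 10 hepatocyte markers 7, among them albumin, had none. The remaining hepatocyte markers AFP, APOA1 and FGB summed to between 72.8 and 371.3 per group. The sum was highest in Rego-resistant SNU449-Axl- cells, where FGB alone stood at 312.1. The leukocyte marker PTPRC, the only 1 of 4 markers of other cells with values, lay at 19 to 31 in all libraries.

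MT2A is the most abundant metallothionein of many human tissues. It ranked 34 of 15601 genes by the authors' mean normalized count over all libraries. Its library values in replicate order were 6106, 8818 and 10177 in SNU449 control cells. They were 10284, 16734 and 16555 in SNU449-Axl- control cells, so that each of these libraries lay above every Axl-proficient control, although the lowest by a small margin. Rego-resistant SNU449 cells had 9704, 6630 and 4832, and Rego-resistant SNU449-Axl- cells had 7721, 4809 and 5779. By their library values the groups were ordered from SNU449-Axl- control through SNU449 control and Rego-resistant SNU449 to Rego-resistant SNU449-Axl-, and the libraries of the last 3 groups overlapped, so that their order was not fixed.

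In SNU449-Axl- cells, MT2A fell with Rego resistance by 1.24 on the log2 scale (SE 0.278, limma, adjusted p = 0.0148), to a level 2.37-fold lower. All 3 resistant libraries lay below all 3 control libraries, and the differences between libraries of the same number were -0.413, -1.8 and -1.52. The call rested on single libraries. Without SNU449-Axl- control library 2 or 3 the log2 change was -1.08 (limma, adjusted p = 0.123) or -1.09 (limma, adjusted p = 0.0802). Without Rego-resistant SNU449-Axl- library 2 or 3 it was -1.03 (limma, adjusted p = 0.15) or -1.21 (limma, adjusted p = 0.0707).

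In Axl-proficient SNU449 cells the corresponding MT2A change was -0.27 (SE 0.278, limma, adjusted p = 0.63), with differences of 0.668, -0.411 and -1.07 within numbers. The difference between these Rego effects, SNU449 minus SNU449-Axl-, was 0.97 (SE 0.393, limma, unadjusted p = 0.0235, adjusted p = 0.167). The fall of MT2A in Axl-deficient cells was thus called, but it was not shown to differ from the change in Axl-proficient cells.

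Between the control groups, MT2A was 1.73-fold higher in SNU449-Axl- cells, a log2 difference of 0.79 that did not pass the threshold (SE 0.278, limma, adjusted p = 0.093). Libraries of the same number, which were not shown to be paired samples, differed by 0.752, 0.924 and 0.702, all in the same direction. This value depended on single libraries as well, since it was 1.101 without SNU449-Axl- control library 1 (limma, adjusted p = 0.0265), 1.002 without SNU449 control library 3 (limma, adjusted p = 0.0495) and 0.51 without SNU449 control library 1 (limma, adjusted p = 0.399). Centred on the spike-in RNAs, it was 0.995 (limma, adjusted p = 0.0272), but this centring also moved the median of all genes to 0.206. In resistant cells, loss of Axl went with a log2 difference of -0.18 (SE 0.278, limma, adjusted p = 0.796), which was 0.11 with spike-in centring, where the median of all genes was 0.306.

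MT1E, another inducible metallothionein of the cluster, was the second most abundant of the members and ranked 243 of 15601 genes. SNU449 control libraries had 1247, 1599 and 485, the third of which was far below the others. SNU449-Axl- control libraries had 2129, 3094 and 5168, all above every other library of the study except those of Rego-resistant SNU449-Axl- cells. Rego-resistant SNU449 libraries had 1639, 1154 and 1607, and Rego-resistant SNU449-Axl- libraries had 2089, 1591 and 2257. Only the SNU449-Axl- control libraries lay wholly above both Axl-proficient groups.

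The group means of MT1E library values spanned 1.71 on the log2 scale, against 1.24 for MT2A, with SNU449 control library 3 included. MT1E rose by 1.71 on the log2 scale with loss of Axl in control cells, a 3.27-fold difference (SE 0.358, limma, adjusted p = 0.00601). The libraries of number 3 carried much of this size, as the differences within numbers were 0.771, 0.952 and 3.41. Without SNU449 control library 3 the value was 1.03 (limma, adjusted p = 0.0211), without SNU449-Axl- control library 3 it was 1.26 (limma, adjusted p = 0.0606), and without all 4 libraries of number 3 it was 0.86 (limma, adjusted p = 0.0547). The direction was the same in all of these, and the size was smaller in each.

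In resistant cells the MT1E difference with loss of Axl was 0.43 (SE 0.358, limma, adjusted p = 0.587), with 0.35, 0.463 and 0.49 within numbers. Rego resistance went with 0.55 in SNU449 cells (SE 0.358, limma, adjusted p = 0.408), which turned to -0.13 without SNU449 control library 3, and with -0.73 in SNU449-Axl- cells (SE 0.358, limma, adjusted p = 0.288). The difference between both Rego effects was 1.28 (SE 0.507, limma, unadjusted p = 0.0213, adjusted p = 0.157). None of these 4 values passed the threshold, although the last was 1.68 without SNU449-Axl- control library 1 (limma, adjusted p = 0.0497).

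**Figure D1:**
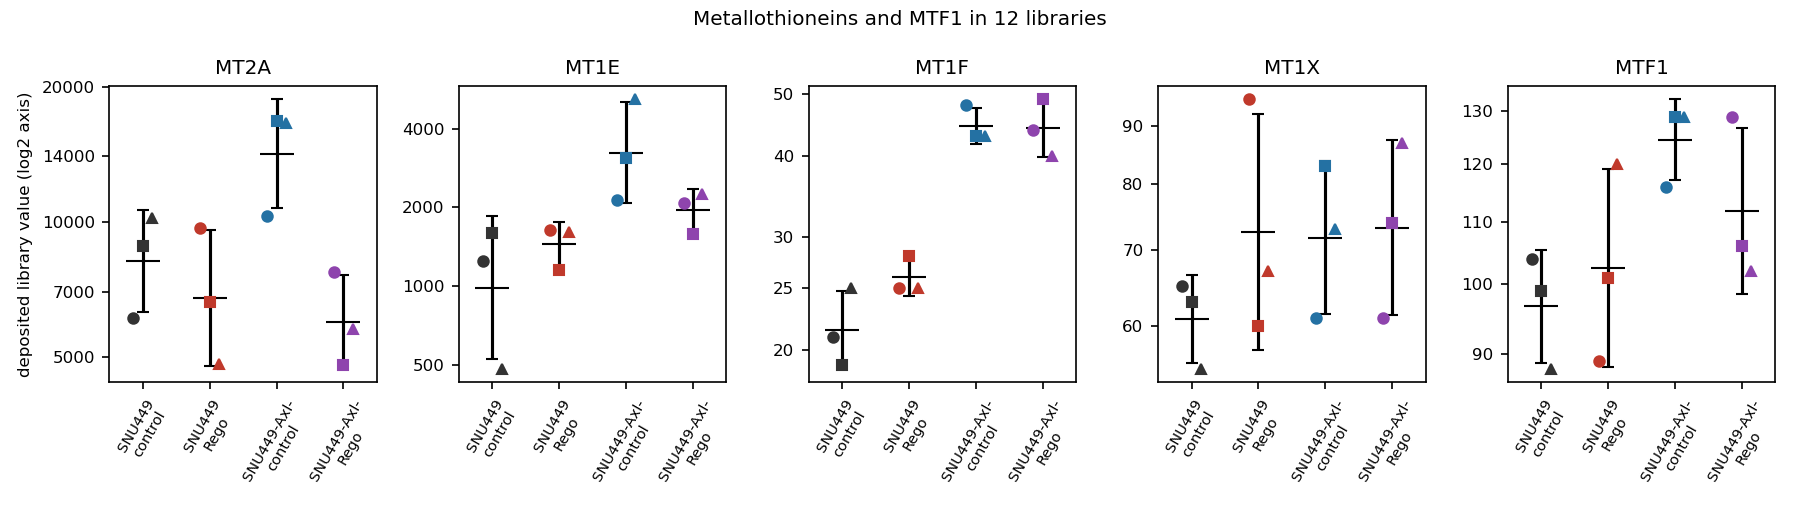
Deposited library values of MT2A, MT1E, MT1F, MT1X and MTF1 on log2 axes, with 1 panel per gene and the 4 groups along the horizontal axis; circles, squares and triangles are the libraries of number 1, 2 and 3, and bars are the geometric mean with 1 SD on the log2 scale (n = 3). MT1F separates both Axl-deficient groups (40 to 49) from both Axl-proficient groups (19 to 28), whereas the libraries of MT1X overlap among all groups.

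MT1F, a metallothionein of low abundance here, separated the backgrounds without overlap in both states. SNU449 control libraries had 21, 19 and 25, and Rego-resistant SNU449 libraries had 25, 28 and 25. These values lay in the range of PTPRC, a gene of leukocytes, in the same libraries. SNU449-Axl- control libraries had 48, 43 and 43, and Rego-resistant SNU449-Axl- libraries had 44, 49 and 40. MT1F ranked 11855 of 15601 genes. It had no value in the table of both Axl-proficient groups alone, but had values in every table with an Axl-deficient group. The authors' filter on low counts thus let MT1F in through the groups where it was high. Its fits for loss of Axl describe these libraries and are no independent support for a difference.

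With loss of Axl in control cells MT1F was higher by 1.02 on the log2 scale (SE 0.178, limma, adjusted p = 0.00164), a 2.02-fold difference in library value. The differences within numbers were 1.16, 1.14 and 0.759, and the call held without each of the 12 libraries in turn, where the log2 change ranged from 0.90 to 1.16. Leaving out a library of resistant cells, which are not compared here, left the log2 change at 1.017. In resistant cells the rise was 0.74 (SE 0.178, limma, adjusted p = 0.0216), with 0.791, 0.786 and 0.657 within numbers. That call was lost without any of Rego-resistant SNU449 libraries 1, 2 and 3 (0.71, 0.81 and 0.72, with limma adjusted p of 0.0902, 0.0522 and 0.0805) and without Rego-resistant SNU449-Axl- library 1 or 2 (0.75 and 0.65, with limma adjusted p of 0.0905 and 0.144).

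Rego resistance went with MT1F differences of 0.26 in SNU449 (SE 0.178, limma, adjusted p = 0.439) and -0.01 in SNU449-Axl- cells (SE 0.178, limma, adjusted p = 0.983). The second of these changed sign with the scaling of the libraries, at 0.12 with spike-in centring, where the median of all genes was 0.144. The table of both Axl-proficient groups gave MT1F no value.

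MT1X, a metallothionein with 4 of the motif matches above, ranked 8529 and showed no called change. Its libraries had 65, 63 and 55 in SNU449 control cells and 95, 60 and 67 in Rego-resistant SNU449 cells. In SNU449-Axl- cells they had 61, 83 and 73 as control and 61, 74 and 87 when Rego-resistant. The groups overlapped in every pair, with group means within 0.264 of each other on the log2 scale. The log2 differences were 0.23 with loss of Axl in control cells (SE 0.219, limma, adjusted p = 0.603) and 0.25 with Rego resistance in SNU449 (SE 0.219, limma, adjusted p = 0.563). They were 0.01 with loss of Axl in resistant cells (SE 0.219, limma, adjusted p = 0.986) and 0.03 with Rego resistance in SNU449-Axl- cells (SE 0.219, limma, adjusted p = 0.967).

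MTF1, the zinc-sensing transcription factor, ranked 6433 and had 104, 99 and 88 in SNU449 control cells. SNU449-Axl- control libraries had 116, 129 and 129, all above these. Rego-resistant SNU449 libraries had 89, 101 and 120, and Rego-resistant SNU449-Axl- libraries had 129, 106 and 102, each overlapping with both control groups. The log2 difference with loss of Axl in control cells was 0.36 (SE 0.192, limma, adjusted p = 0.292), and that in resistant cells was 0.12 (SE 0.192, limma, adjusted p = 0.798). Rego resistance went with 0.08 in SNU449 (SE 0.192, limma, adjusted p = 0.857) and -0.15 in SNU449-Axl- cells (SE 0.192, limma, adjusted p = 0.729). RNA of MTF1 does not measure its activity, which zinc controls at the protein.

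**Figure D2:**
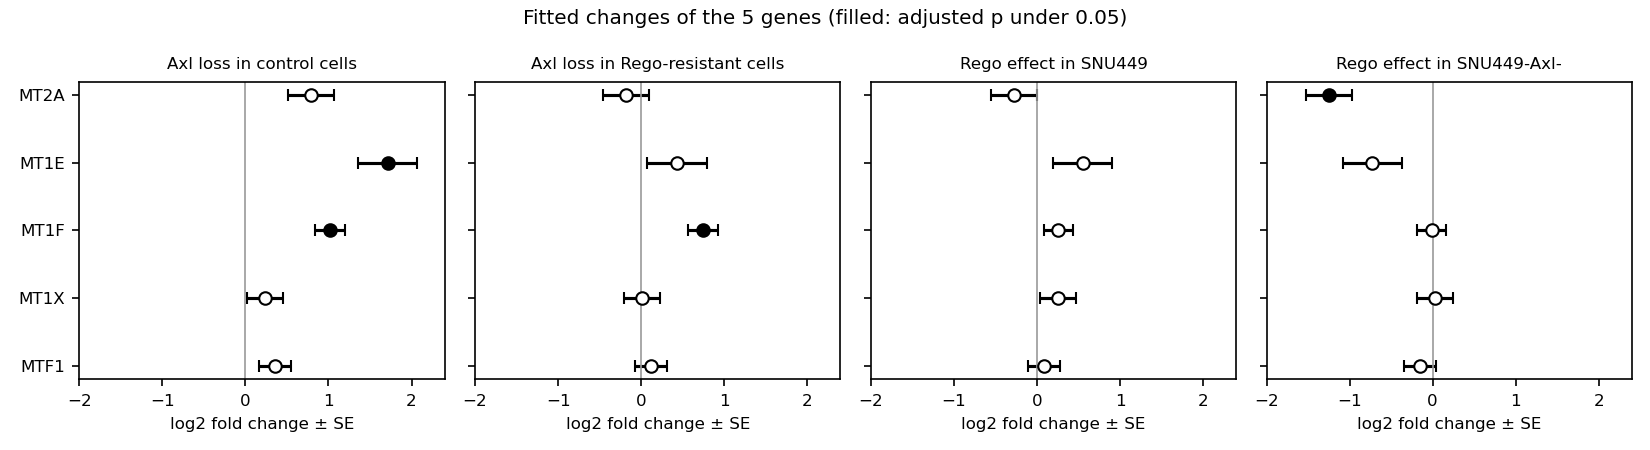
Fitted log2 fold change with its standard error (horizontal axis) for the 5 genes, with 1 panel per comparison; filled points have a limma adjusted p under 0.05. MT1E and MT1F are filled for loss of Axl in control cells, MT1F for loss of Axl in resistant cells, MT2A for Rego resistance in SNU449-Axl- cells, and none for Rego resistance in SNU449.

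Counted over the 5 genes, loss of Axl in control cells raised 2 and lowered 0, against 7.45% called of all genes, with a median log2 change of 0.793 for the 5 and 0.0035 for all genes. In resistant cells loss of Axl raised 1 of 5, against 4.37% of all genes. Rego resistance changed 0 of 5 in SNU449 by limma, where 7.81% of all genes were called. At an unadjusted limma p under 0.05 it was 0 of 5 as well, against 3316 of 15601 genes. In SNU449-Axl- cells Rego resistance lowered 1 of 5, where 4.35% were called. For the difference between the Rego effects, 0 of 5 were called, against 5.87% of all genes. An unadjusted limma p under 0.05 was found for 2 of 5 (MT2A and MT1E), and for 3032 of 15601 genes. With 5 genes, of which several are neighbours and near copies, these shares are descriptions only. MT1F, counted for loss of Axl in both states, passed the authors' low-count filter through the Axl-deficient groups where it was high. Groups that did not overlap were found for 4 of 5 genes with loss of Axl in control cells, where 27.9% of all genes did not overlap, and for 1 of 5 with loss of Axl in resistant cells, where it was 28%. The corresponding counts for Rego resistance were 0 of 5 in SNU449, with 27.9% of all genes, and 1 of 5 in SNU449-Axl- cells, with 29.1%.

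The remaining pairs of groups differ in both Axl and Rego resistance. Compared with SNU449 control cells, Rego-resistant SNU449-Axl- cells had higher MT1F, by 1.004 (SE 0.178, limma, adjusted p = 0.00133), while MT1E stood at 0.98 (SE 0.358, limma, adjusted p = 0.115) and MT2A at -0.45 (SE 0.278, limma, adjusted p = 0.403). This was 1 call of 5, against 7.11% of all genes, and 1 of 5 did not overlap, against 28.7%. Compared with SNU449-Axl- control cells, Rego-resistant SNU449 cells had lower MT2A, by a log2 change of -1.07 (SE 0.278, limma, adjusted p = 0.0312), and lower MT1F, by a log2 change of -0.76 (SE 0.178, limma, adjusted p = 0.0187). MT1E was at -1.16 in this pair (SE 0.358, limma, adjusted p = 0.0643). It passed the threshold without the replicate block (limma, adjusted p = 0.0453), a fit that gave 33 false calls on simulated data, against 2 with the block. In this pair 2 of 5 were called, against 5.59% of all genes, and 3 of 5 did not overlap, against 28.6%. MT1E passed in the first of these pairs without SNU449 control library 2 (1.446, limma, adjusted p = 0.0362). In the second it passed without SNU449-Axl- control library 1 (-1.56, limma, adjusted p = 0.0201). It also passed without SNU449 control library 2 or 3 (limma, adjusted p = 0.0451 and 0.00399). Those libraries are not in that pair, and its log2 change stayed at -1.16 without them. These pairs share their libraries with the comparisons above and add no samples. The limit from the low-count filter holds for MT1F in both pairs as well.

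The MT2A and MT1F calls of the last pair also depended on single libraries. The MT2A value was -1.05 without Rego-resistant SNU449 library 2 (limma, adjusted p = 0.11), -0.74 without library 3 of that group (limma, adjusted p = 0.195), and -0.91 and -0.92 without SNU449-Axl- control libraries 2 and 3 (limma, adjusted p = 0.167 and 0.141). The MT1F value ranged from -0.69 to -0.82 over the libraries left out. Its adjusted p rose above 0.05 in limma without Rego-resistant SNU449 library 1 or 3 (0.0654 and 0.0778) and without SNU449-Axl- control library 1, 2 or 3 (0.0732, 0.0607 and 0.0561).

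**Figure D3:**
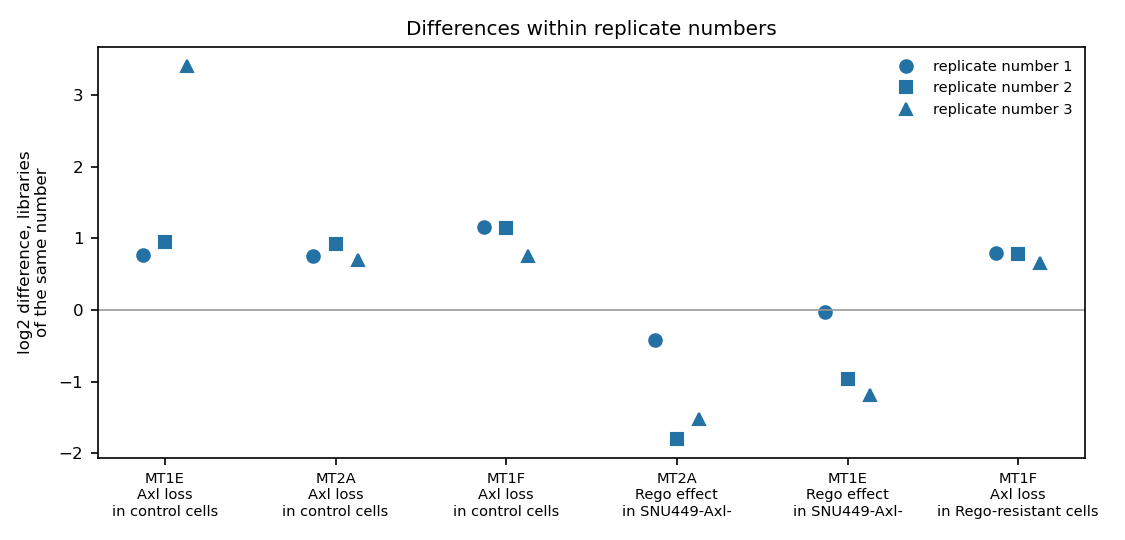
Log2 differences between libraries of the same replicate number (vertical axis) for 6 pairs of gene and comparison; circles, squares and triangles are numbers 1, 2 and 3. For MT1E with loss of Axl in control cells, number 3 lies at 3.41 while numbers 1 and 2 lie at 0.771 and 0.952, and the other differences with loss of Axl lie between 0.657 and 1.16. Equal numbers were not shown to pair the samples.

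Mean normalized counts of each group were solved from the authors' pooled means of the 6 tables for pairs of groups, which gives a scale without compression at low levels but no error. Since reads come from the 3′ end, a transcript gives counts independent of its length. MT2A came to 8240 counts for SNU449 and 15500 for SNU449-Axl- cells as controls, and to 7270 and 8260, respectively, for their Rego-resistant derivatives. On this scale the lowest MT2A mean was that of Rego-resistant SNU449 and not, as in the library values, that of Rego-resistant SNU449-Axl- cells. The SNU449-Axl- control group held 1.88 times the MT2A mean of the SNU449 control group and 1.88 times that of its own resistant derivative. MT1E came to 1440 and 3590 for the controls and to 1360 and 2480 for the derivatives, or 2.49 times the SNU449 control mean in SNU449-Axl- control cells and 1.72 times in their resistant derivative.

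For MT1F both scales separated the backgrounds. It was solved as 0 counts for control and 0.444 for resistant cells of the Axl-proficient background, against 17.6 and 18.7 in the Axl-deficient background, so that no fold is given. This rested on 5 tables with a largest misfit of 4.05%, and the SNU449 control value came out at -1.01 when it was not bounded at 0. MT1X came to 33.6 counts for control and 43.1 for resistant SNU449 cells and to 49.8 and 52.6 without Axl. MTF1 came to 70.6 and 69.4 with Axl and to 110 and 101 without it.

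MT2A and MT1E made up nearly the whole metallothionein signal. The sum of the 4 metallothioneins was 9714 counts for control and 8674 for resistant Axl-proficient cells, and 19160 and 10810 for Axl-deficient cells. MT2A held 84.8% and 83.8% of this sum in control and resistant Axl-proficient cells, and 80.9% and 76.4% in Axl-deficient cells. The ratio of MT2A to MT1E was 5.72, 5.35, 4.32 and 3.33 in the same order. No replicate error can be given for these pooled values.

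**Figure D4:**
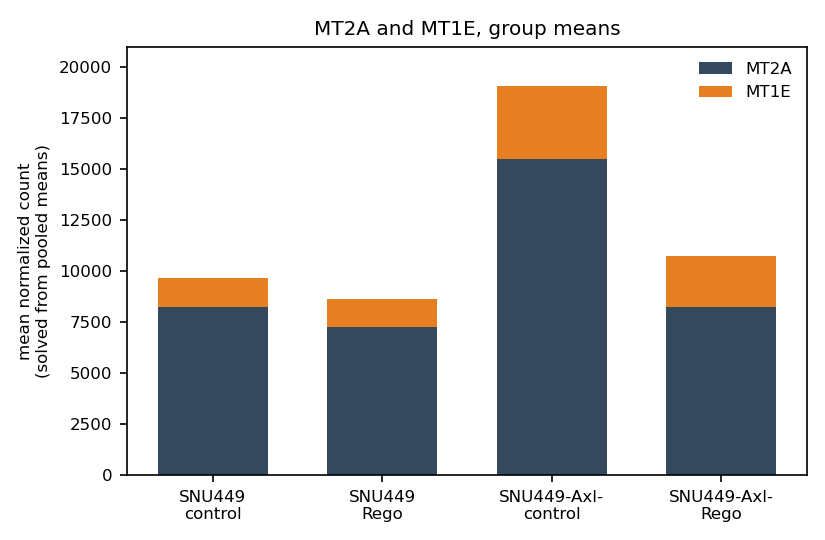
Mean normalized counts of MT2A and MT1E (stacked bars from 0, vertical axis) in the 4 groups, solved from the authors' pooled means and without error bars. SNU449-Axl- control cells have the highest bar, with 15500 counts of MT2A and 3590 of MT1E.

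Metallothionein transcripts resemble each other, which bears on the assignment of reads. Over the last 300 bases of the annotated transcripts, windows of 100 bases were compared with the other metallothionein transcripts. For MT1F 11.4% of 201 windows, for MT1E 18.4%, for MT1X 31.8% and for MT2A 39.8% lay within 5 edits of another gene, and 0 windows matched another gene exactly. The last window of MT1M was 3 edits from the closest stretch anywhere in MT1JP. The last windows of MT1E, MT1F, MT2A and MT1X were 9, 17, 19 and 25 edits from the closest stretch of any other metallothionein transcript. Reads that match several genes can be lost or split in the counting, so that the levels of single metallothioneins are uncertain to that extent, and its part in the differences was not tested.

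Zinc exporters and importers set the zinc that metallothioneins buffer and MTF1 senses. Of 10 listed SLC30 genes, which move zinc out of the cytosol, 7 were tested. With loss of Axl in control cells 1 rose and 0 fell, against 7.45% called of all genes, with a median log2 change of -0.138 for the 7. The gene that rose was SLC30A1, the exporter of the cell surface and a target of MTF1, by 0.77 (SE 0.227, limma, adjusted p = 0.0461). Its libraries ranged from 194 to 221 in SNU449 control and from 266 to 496 in SNU449-Axl- control cells, and the call was kept without 3 of the 12 libraries left out in turn, with a log2 change of 0.44 to 1.04. No SLC30 gene was called by limma with Rego resistance in SNU449 or SNU449-Axl- or with loss of Axl in resistant cells, against 7.81%, 4.35% and 4.37% of all genes. An unadjusted limma p under 0.05 was found for 1, 1 and 0 of 7, and for 3316, 2894 and 2835 of 15601 genes.

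Of 14 listed SLC39 genes, which bring zinc into the cytosol, 10 were tested. With loss of Axl in control cells 3 of 10 rose and 0 fell (median log2 change 0.399), against 7.45% called of all genes. SLC39A14, an importer of zinc, iron and manganese that is prominent in liver, rose by 1.05 (SE 0.23, limma, adjusted p = 0.00853), from 232 to 359 in SNU449 control to 556 to 652 in SNU449-Axl- control libraries. SLC39A10, an importer of the cell surface, rose by 1.04 (SE 0.276, limma, adjusted p = 0.0264), and SLC39A3 rose by 0.80 (SE 0.188, limma, adjusted p = 0.0132). In resistant cells 1 of 10 rose with loss of Axl and 0 fell, again SLC39A14, by 1.35 (SE 0.23, limma, adjusted p = 0.00201). Of all genes, 4.37% were called there.

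With Rego resistance in SNU449 cells, SLC39A11 rose by 0.96 (SE 0.268, limma, adjusted p = 0.0329) and SLC39A13 by 0.73 (SE 0.216, limma, adjusted p = 0.0468), 2 of 10 with 0 lower, against 7.81% called of all genes. In SNU449-Axl- cells 1 of 10 fell and 0 rose, against 4.35% called of all genes. It was SLC39A3, with a log2 change of -0.68 (SE 0.188, limma, adjusted p = 0.0467). Among 14 tested of 15 copper handling genes, 1 was called with loss of Axl in control cells, against 7.45% of all genes. It was COX17, a copper chaperone for cytochrome c oxidase, at 0.71 (SE 0.213, limma, adjusted p = 0.0493). No copper gene was called by limma with loss of Axl in resistant cells or with Rego resistance in SNU449 or SNU449-Axl- cells, against 4.37%, 7.81% and 4.35% of all genes. An unadjusted limma p under 0.05 was found for 4, 0 and 1 of 14, and for 2835, 3316 and 2894 of 15601 genes. STEAP3, a metalloreductase, was lower in Rego-resistant SNU449-Axl- than in SNU449 control cells (log2 change -1.14, SE 0.294, limma, adjusted p = 0.0228). This was 1 of 14 copper genes, against 7.11% called of all genes.

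Glucocorticoid response genes were counted because glucocorticoids induce metallothioneins. Of 14, 12 were tested, and with loss of Axl in control cells 0 rose and 2 fell (median log2 change -0.188), against 7.45% called of all genes. KLF9, a transcription factor and glucocorticoid target, fell by 1.32 on the log2 scale (SE 0.237, limma, adjusted p = 0.00199), and CRISPLD2 fell by 1.85 (SE 0.378, limma, adjusted p = 0.00495). The other 10 were not called, and whether glucocorticoids had a part in the metallothionein levels was not tested. In resistant cells 1 of 12 rose with loss of Axl, CEBPD, by 1.56 (SE 0.319, limma, adjusted p = 0.0084), against 4.37% called of all genes. With Rego resistance, DUSP1, a phosphatase of MAP kinases, fell by 0.90 in SNU449 (SE 0.269, limma, adjusted p = 0.0475), and NFKBIA, the inhibitor of NF-κB, rose by 1.02 in SNU449-Axl- cells (SE 0.245, limma, adjusted p = 0.0229). This was 1 of 12 in each, against 7.81% and 4.35% called of all genes.

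All 12 listed genes of the response to heat and misfolded proteins, or to oxidative stress, were tested. With loss of Axl in control cells 3 rose and 0 fell (median log2 change 0.486), against 7.45% called of all genes. HMOX1, the haem oxygenase induced by oxidative stress, rose by 1.27 (SE 0.241, limma, adjusted p = 0.00298), HSPA1A, the inducible Hsp70 chaperone, by 1.08 (SE 0.196, limma, adjusted p = 0.00215), and its co-chaperone DNAJB1 by 0.63 (SE 0.173, limma, adjusted p = 0.0333). HSPA1A shares near-identical sequence with HSPA1B, which leaves its level uncertain. HMOX1 had 73 to 113 in SNU449 control and 207 to 260 in SNU449-Axl- control libraries.

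In Rego-resistant SNU449 cells HMOX1 and HSPA1A rose against control, by 0.93 (SE 0.241, limma, adjusted p = 0.0219) and 0.97 (SE 0.196, limma, adjusted p = 0.00433), while the co-chaperone DNAJA1 fell by 0.71 (SE 0.214, limma, adjusted p = 0.0476). These were 3 of 12, against 7.81% called of all genes. In SNU449-Axl- cells 0 of 12 rose with Rego resistance and 2 fell, against 4.35% called of all genes. They were the co-chaperone BAG3, lower by 0.80 (SE 0.197, limma, adjusted p = 0.0253), and the chaperone HSP90AA1, lower by 0.89 (SE 0.214, limma, adjusted p = 0.0235). In resistant cells loss of Axl went with lower BAG3, by a log2 change of -0.89 (SE 0.197, limma, adjusted p = 0.0134), and higher DNAJA1, by 0.77 (SE 0.214, limma, adjusted p = 0.048). These were 2 of 12, against 4.37% called of all genes.

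Calls of the listed genes also differed in how they held when each of the 12 libraries was left out in turn. Libraries outside the groups compared do not enter the log2 change and can alter only the adjusted p. Counts out of 12 thus include cases that could not move the size of a change, which holds for NUP93 below as well. With loss of Axl in control cells, HMOX1, HSPA1A and KLF9 kept theirs in 12 of 12 cases, SLC39A14 and CRISPLD2 in 11, SLC39A3 in 10, SLC39A10 in 8, DNAJB1 in 4 and SLC30A1 and COX17 in 3. In resistant cells, SLC39A14 was called in 12 of 12, CEBPD and BAG3 in 8 and DNAJA1 in 4. With Rego resistance in SNU449, HSPA1A was called in 12 of 12, HMOX1 in 9, SLC39A11 in 7, DUSP1 in 5, SLC39A13 in 4 and DNAJA1 in 3. In SNU449-Axl- cells NFKBIA was called in 8, BAG3 and HSP90AA1 in 7 and SLC39A3 in 3 of 12 cases, all in limma. Other listed genes were called in the pairs that differ in both Axl and Rego resistance and are not named for them. For Rego-resistant SNU449-Axl- against SNU449 control they were 2 of 10 SLC39, 1 of 12 glucocorticoid and 3 of 12 stress genes, against 7.11% of all genes. For Rego-resistant SNU449 against SNU449-Axl- control they were 2 of 10, 1 of 12 and 2 of 12, against 5.59%.

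Genes next to the cluster were examined to see whether they moved with the metallothioneins. Of 42 other annotated genes within 500 kb, 9 were tested. With loss of Axl in control cells 0 of 9 were called in limma (1 at an unadjusted p under 0.05). Of all genes 7.45% were called (3357 of 15601 at an unadjusted limma p under 0.05). The log2 changes of the 9 neighbours ranged from -0.475 to 0.338, with BBS2, which reaches into the cluster, at -0.02. In resistant cells 0 of 9 were called by limma with loss of Axl (1 at an unadjusted p under 0.05), from -0.6 to 0.261. Of all genes 4.37% were called there (2835 of 15601 at an unadjusted limma p under 0.05). With Rego resistance in SNU449-Axl- cells NUP93, a nuclear pore gene 45.9 kb from the cluster, fell by 0.77 (SE 0.206, limma, adjusted p = 0.0401), and the other 8 were not called. Of all genes, 4.35% were called there. The call of NUP93 was kept without 4 of the 12 libraries left out in turn.

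**Figure D5:**
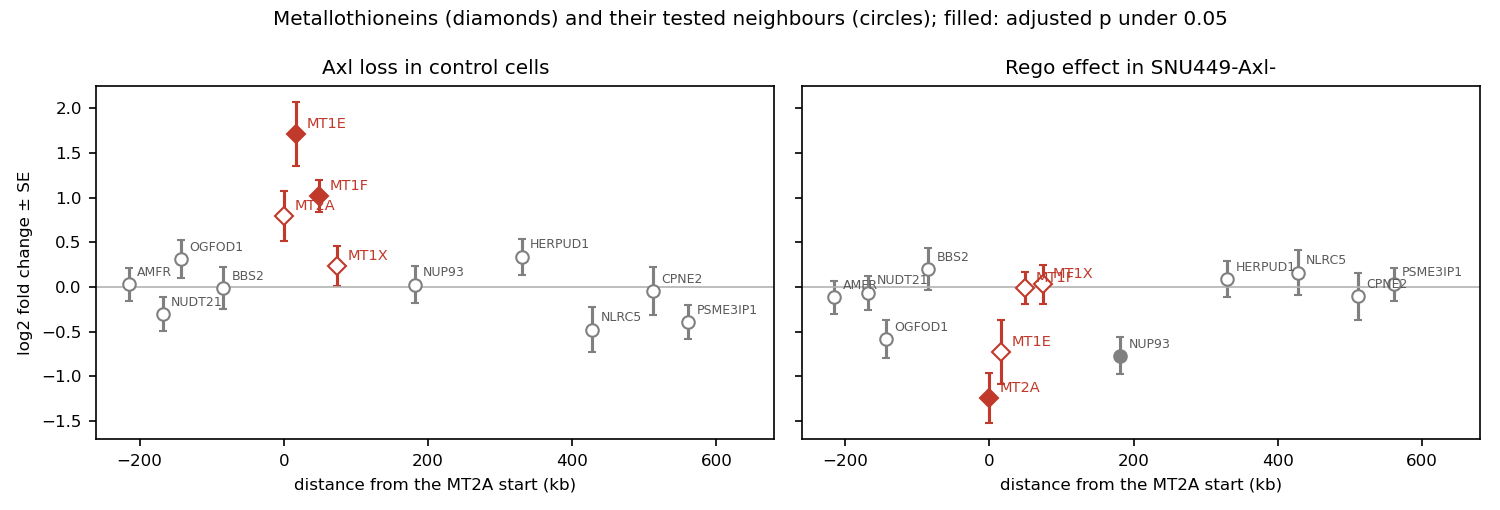
Log2 fold change with its standard error (vertical axis) against distance from the MT2A start in kb (horizontal axis) for the 4 metallothioneins (diamonds) and the 9 tested neighbours (circles), with loss of Axl in control cells on the left and Rego resistance in SNU449-Axl- cells on the right; filled symbols have a limma adjusted p under 0.05. On the left the neighbours lie between -0.475 and 0.338 and MT1E at 1.71; on the right MT2A and NUP93 are the filled symbols.

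Genes whose 4 group means followed those of MT2A most closely were named among 8188 genes with an authors' mean normalized count of at least 50, by the root mean square difference of centred log2 group means. These were CCDC3 (0.0886), HEG1 (0.0919), DKC1 (0.0927), LACTB (0.0949) and SDF2L1 (0.0953). In the library values, as for MT2A, they were highest in SNU449-Axl- control and lowest in Rego-resistant SNU449-Axl- cells, whereas the solved mean counts of MT2A were lowest in Rego-resistant SNU449 cells. For MT1E the closest were ETS2 (0.0945), XPR1 (0.122), PLOD2 (0.132), the gene with identifier ENSG00000263343 (0.159) and JUNB (0.17), with the highest mean in SNU449-Axl- control and the lowest in SNU449 control cells. That SNU449 control is the lowest group for MT1E rests on its library 3 (485), and the solved mean counts of MT1E were lowest in Rego-resistant SNU449 cells (1360 against 1440). The likeness is over 4 group means, which many genes can share.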

How the data were processed

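RNA of 12 libraries was prepared with a QuantSeq 3′ kit and trimmed with cutadapt 4.0 by the authors. Reads were aligned with STAR 2.5.3a against GRCh38, GENCODE release 40 genes and spike-ins, with multiple hits per read allowed in the alignment, and counted per gene. Weakly expressed genes were removed by the authors before deposition. Of the 8 deposited tables, 2 hold all 12 libraries and 6 hold pairs of groups. The library values were treated as scores, since the authors made them as variance-stabilized levels with the preparation effect removed, rounded after return from the log2 scale. The deposited signal column is the mean normalized count over the libraries of a table. Columns with the authors' own fold changes, errors, p-values and group averages were not used. Depth per library is unknown, and no interval that needs it is given.

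Log2(value + 1) from the 12-library table by Axl background was modelled on group and replicate number in limma 3.58.1 (R 4.3.3) with a trended eBayes prior. The replicate number stood for the preparation, which the labels do not name. Deviations of libraries with the same number correlated at -0.485 to -0.0906, as removal of an effect along the number leaves them, so that they cannot show whether the numbers pair the samples. The fit was tested on simulated data with such an effect removed, where 200 of 15601 genes were changed by 1 on the log2 scale. With the block 107 of the 200 were recovered with 2 false calls, so that a gene not called may still have changed. Without the block 146 were recovered with 33 false calls. An unadjusted limma p under 0.05 was found for 5.29% of unchanged genes with the block and for 9.64% without it. Group mean counts were solved by non-negative least squares from the pooled means of 6 tables, with table scales of 0.998 to 1. Windows, motifs and likeness were computed in Python, and positions were taken from GENCODE release 44 through the identifiers. Named genes are the 7 members, up to 4 called genes with the largest change per list and comparison, called neighbours and the 5 genes most like MT2A and MT1E. For the pairs that differ in both Axl and Rego resistance, STEAP3 is the only listed gene named. The members and lists were chosen with earlier results of these data known. Alternatives were no block, other tables, other scalings, a pseudocount of 0, a minimum mean count of 10, no trend, and leaving out libraries.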

Additional observations from a re-analysis of the deposited data

Results flagged for a closer look

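For 5 genes of the zinc, glucocorticoid and stress lists, the Rego effect differed between the backgrounds by the interaction term in limma (SNU449 minus SNU449-Axl-). They are named because they were called, 1 of 10 SLC39, 2 of 12 glucocorticoid and 2 of 12 stress genes tested. Of the SLC30 genes 0 of 7 and of the copper genes 0 of 14 were called, against 5.87% of all genes. SLC39A3 differed by 1.157 (SE 0.266, adjusted p = 0.0136). Its libraries ranged from 61 to 73 in SNU449 control, 90 to 104 in Rego-resistant SNU449, 108 to 141 in SNU449-Axl- control and 72 to 78 in Rego-resistant SNU449-Axl- cells. HSPA1A differed by 1.243 (SE 0.277, limma, adjusted p = 0.0113) and DNAJB1 by 1.031 (SE 0.245, limma, adjusted p = 0.0165). NFKBIA differed by -1.41 (SE 0.347, limma, adjusted p = 0.0203) and CRISPLD2 by -1.866 (SE 0.534, limma, adjusted p = 0.0453). The call was kept in 20 of 20 alternatives for HSPA1A, 19 for SLC39A3, 16 for DNAJB1 and NFKBIA, and 9 for CRISPLD2. The corresponding values of MT2A and MT1E, 0.97 and 1.28, did not pass the threshold in limma (adjusted p = 0.167 and 0.157). Groups of 3 libraries were not examined for outlying samples.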

How the results depend on the processing

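The cells of a group were 1 population, low library values are compressed, and 5 genes were tested, which limits what the differences can show. Without the replicate block, the members called kept their number in every comparison except that of Rego-resistant SNU449 with SNU449-Axl- control cells, where MT1E was added (3 in place of 2), whereas the genes called of all 15601 rose to 2175 and 1552 for Rego resistance in SNU449 and SNU449-Axl-, 2182 and 1503 for loss of Axl in control and resistant cells, 1979 for Rego-resistant SNU449-Axl- against SNU449 control, 1948 for Rego-resistant SNU449 against SNU449-Axl- control and 1826 for the difference of Rego effects. The fit without the block was too lenient on simulated data, so that these larger counts are inflated to an unknown extent. There, 9.64% of unchanged genes had an unadjusted limma p under 0.05, against 5.29% with the block. Removal of the preparation effect along the number forces the correlations of deviations down, so that they cannot show whether equal numbers pair the samples. In the tables of pairs, the genes called were 603 for Rego resistance in SNU449, 603 and 1160 for loss of Axl in control and resistant cells and 430 for Rego-resistant SNU449 against SNU449-Axl- control, with 1 member called for loss of Axl in control cells (MT1F) and 1 in the last pair (MT1E). Without the block as well, an alternative chosen after seeing the data, these tables gave 2947 and 3566 genes for Rego resistance, 3750 and 4024 for loss of Axl, and 3542 and 3332 for the pairs that differ in both. The members called were then 2 for Rego resistance in SNU449-Axl-, and 4 and 2 for loss of Axl in control and resistant cells. These counts lack the block as well, and a fit of this kind on the tables of pairs was not simulated.

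Centring on spike-in RNAs moved the median log2 change of all genes to 0.206 and 0.306 for loss of Axl in control and resistant cells, 0.144 for Rego resistance in SNU449-Axl-, -0.101 for the difference of Rego effects and 0.348 and -0.155 for the pairs that differ in both, while the change for Rego resistance in SNU449 was 0.0476. Genes called then came to 1488 and 1799 for loss of Axl in control and resistant cells, 3093 for Rego-resistant SNU449-Axl- against SNU449 control and 880 for Rego-resistant SNU449 against SNU449-Axl- control, and of the genes called with loss of Axl 84.5% and 96.2% were higher. With this centring 3 members were called with loss of Axl in control cells, 2 in Rego-resistant SNU449-Axl- against SNU449 control and 3 in the pair of Rego-resistant SNU449 and SNU449-Axl- control cells, and signs turned for MT2A with loss of Axl in resistant cells (0.11), MT1F with Rego resistance in SNU449-Axl- (0.12) and MT1X in Rego-resistant SNU449 against SNU449-Axl- control (-0.14). That MT1F value was also reversed with upper-quartile rescaling (0.00067) and in the other table of all libraries (0.0076). A minimum mean count of 10 removed MT1F from the test, so that members called fell to 1 for loss of Axl in control cells, 0 in resistant cells, 0 for Rego-resistant SNU449-Axl- against SNU449 control and 1 for the last pair.

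With the 4 libraries of number 3 left out, also chosen after seeing the data, 1 member was called with loss of Axl in control cells (MT1F) and 0 in resistant cells, 0 with Rego resistance in SNU449-Axl- and 0 in the last pair, where 419 genes were called. Signs turned for MT2A (0.13), MT1E (-0.038) and MTF1 (-0.097) with Rego resistance in SNU449, MT1F (0.031) and MT1X (-0.082) with Rego resistance in SNU449-Axl-, MT1X with loss of Axl in resistant cells (-0.17) and MTF1 in the difference of Rego effects (-0.032). None of these values was called. Leaving out each library in turn gave ranges of genes called of 740 to 1299 and 205 to 891 for Rego resistance in SNU449 and SNU449-Axl-, 540 to 1275 and 219 to 826 for loss of Axl in control and resistant cells, 576 to 1226 and 337 to 1108 for the pairs that differ in both and 523 to 922 for the difference of Rego effects. Members called ranged from 0 to 0, 0 to 1, 1 to 3, 0 to 1, 1 to 2, 0 to 3 and 0 to 1 in that order. Uncalled log2 changes that turned sign ranged, with Rego resistance in SNU449, from -0.62 to 0.052 for MT2A, -0.13 to 1.01 for MT1E, -0.0077 to 0.43 for MT1X and -0.065 to 0.22 for MTF1. In SNU449-Axl- cells they ranged from -0.11 to 0.074 for MT1F and -0.13 to 0.20 for MT1X. With loss of Axl in resistant cells they were -0.50 to 0.17 for MT2A, -0.17 to 0.27 for MT1X and -0.014 to 0.27 for MTF1. The ranges of MT1X were -0.24 to 0.20 in Rego-resistant SNU449 against SNU449-Axl- control and -0.037 to 0.40 for the difference of Rego effects. The cause of these changes was not tested. A pseudocount of 0 and a fit without trend changed no call of a member.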
